A study of Mus musculus with 6 samples.

Results

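H3K27ac, the acetylated form of lysine 27 of histone H3, marks active promoters and enhancers. The regions described here gained a call for this mark during myogenic differentiation beside chromatin that already carried it in proliferating myoblasts. They were chosen from the peak calls themselves. Overlapping peaks of the 3 H3K27ac lists (at least 1 bp) were merged, and a region was kept if it held a peak at 36 h and at 72 h of differentiation, held none in proliferation, and had at least 1 proliferation peak within 12.5 kb of either edge. Of 112926 merged regions, 14468 met this rule, which is 57.5% of the 25164 regions (22.3% of all) gained at both differentiation stages. The other 10696 gained regions, termed distant gained regions below, had no proliferation peak within 12.5 kb. By the rule, each member lacked a call in proliferation and had one at both later stages, so neither fact is a finding.

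Acetylation of H3K27 is written by the acetyltransferases p300 and CBP, which transcription factors bring to enhancers. It is removed by histone deacetylases, and it commonly spreads over groups of neighbouring enhancers around genes that give a cell its identity. In muscle, the myogenic factors MyoD and myogenin, together with Mef2 proteins, bind many such enhancers as myoblasts leave the cell cycle and fuse into myotubes. A call beside an older one can therefore be a separate element in the same stretch of chromatin or the edge of a mark that has broadened. Peak lists hold the position and height of a call but do not tell these apart.

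The series, whose title names the role of TAp63 in myogenesis, used C2C12 cells, a mouse myoblast line that forms myotubes in culture. The 6 samples are pairs of an H3K27ac and an input library from proliferating cells and from cells differentiated for 36 h or for 72 h, with no further allele or agent named in the labels. Each H3K27ac library was made from DNA of 4 ChIP assays pooled before sequencing, with 1.2 µg of antibody per assay, so a stage is 1 library and the spread between cultures was not measured. No test between stages was possible, differences are given as values, and intervals cover counting error only. The lists held 57101, 89717 and 97144 peaks for proliferation, 36 h and 72 h. The recovered ChIP depth was 1.2 times (36 h) and 1.1 times (72 h) that of proliferation. Coordinates are 1-based on mouse build mm9. The reference tables used here are on another build, so no region was linked to a gene and no sequence is printed.

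Short gaps between members and the older peaks were the most frequent. The gap from a member to its nearest proliferation peak had a median of 2.58 kb, with 25% of the members under 571 bp and 25% over 6.20 kb. The density fell steeply with distance. There were 7507 members per kb of gap between 147 and 500 bp, 1682 between 1 and 2.5 kb, and 465 between 10 and 12.5 kb. The fullest 100 bp bin, from 200 to 300 bp, held 1002 members (6.93%). The bin under 100 bp held 389. Neighbouring peaks within each single list were most often 100 to 200 bp apart, so short gaps are also common between peaks of the same library. The median gap between such neighbours was 785 bp (proliferation), 583 bp (36 h) and 634 bp (72 h), shorter than the members' 2.58 kb. When peaks were merged across gaps of up to 1 kb, there were 5173 members. With a −log10 q of at least 5 in each list there were 8727, and with lists equal in number 6945.

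**Figure D1:**
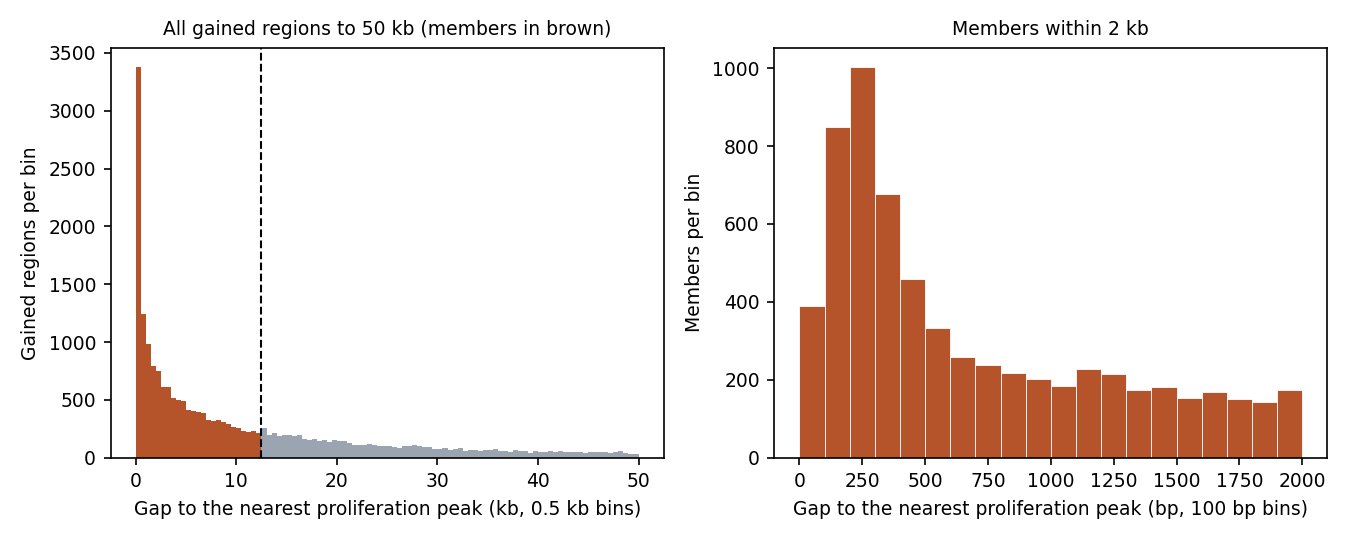
Number of gained regions by the gap in kb to the nearest proliferation peak (left, bins of 0.5 kb, members in brown, dashed line at 12.5 kb) and of members by the gap in bp (right, bins of 100 bp). The counts were highest at short gaps, with 1002 members between 200 and 300 bp. The bins on either side of 12.5 kb held 218 and 258 gained regions.

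The limit of 12.5 kb lay in the thin tail of the gaps, with 218 gained regions in the last 0.5 kb inside it and 258 in the first 0.5 kb outside. The member just inside it lay on chromosome 13 from 32907476 to 32908006, exactly 12.5 kb from its proliferation peak, with 14 summit fragments (36 h) and 19 (72 h). The gained region just outside, on chromosome 15 from 27509754 to 27512077, lay at 12503 bp and had 30 and 15. A summit fragment is a ChIP fragment covering the highest point of a peak, and its number was recovered from the deposited fold and p-value.

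Proximity to a proliferation peak was not particular to regions gained at both later stages. Among all 70072 regions without a proliferation peak, 58.0% lay within 12.5 kb of one. The share was 65.5% (95% Wilson interval 64.8 to 66.2%) for regions called at 36 h only and 53.5% (52.9 to 54.1%) for those called at 72 h only. The members' share of the gained regions, 57.5% (56.9 to 58.1%), was near that background. Most members had their older neighbour on 1 side, while 4469 (30.9%, 30.1 to 31.7%) had a proliferation peak within 12.5 kb on both sides (18.2% with a limit of 5 kb for both the rule and the sides). The median number of proliferation peaks within 12.5 kb of a member was 3. It was exactly 1 for 26.4% of members and at least 5 for 25.9%.

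Members were found on every assembled chromosome that had gained regions. Chromosome 2 held 1228, chromosome 11 held 1100 and chromosome 1 held 1071. The share of a chromosome's gained regions that were members ran from 52.0% on chromosome 13 to 61.9% on chromosome 15 among the autosomes, and was 46.7% on chromosome X, which had 264 members. A further 17 members were on contigs without a fixed place in the build.

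Most members were of middling height in the lists that called them. The median fold, the deposited ratio of ChIP to local background at the strongest peak of a region, was 5.71 at 36 h and 5.82 at 72 h. These values stood above 50% of all 36 h peaks and 51.1% of all 72 h peaks. From the lowest to the highest 5%, the members' fold ran from 3.59 to 13.1 at 36 h and from 3.40 to 14.0 at 72 h. In fragments, the median member had 20 at its summit at 36 h and 21 at 72 h. Put on the depth of the proliferation library, these became 16.7 and 19.1. Only 3.25% of members reached the top 10% of the 36 h list by fold (at least 14.5) and 4.73% the top 10% of the 72 h list (at least 14.4).

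Distant gained regions were somewhat taller and wider. Their median fold was 6.02 at 36 h and 6.47 at 72 h, so the members' median was 0.949 and 0.90 times theirs. In the top 10% of the 72 h list were 7.67% of them (7.18 to 8.19%), compared with 4.73% of members (4.39 to 5.09%). The median width was 556 bp for members and 614 bp for distant gained regions, and 4.85% and 5.62% were wider than 2 kb. Regions with a peak at all 3 stages were taller than both groups, with median folds of 9.42 and 9.94 and a median width of 1119 bp. Because merging joins the calls of every stage, a region called in more lists is bound to be wider. A wide call beside an older peak can also overlap it and so drop out of the members. A distant gained region has no older peak in reach. The part of this in the differences between members and distant gained regions was not tested.

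Within the members, height and width varied with the gap. Members closer than 147 bp to a proliferation peak had a median width of 424 bp and a median fold of 5.36 at 36 h and 5.32 at 72 h. At gaps of 2.5 to 5 kb the medians were 616 bp, 6.02 and 5.99. At 10 to 12.5 kb they were 634 bp, 6.02 and 6.19. By the rule, a later call that touches a proliferation peak is not a member. At short gaps this by itself leaves out wide calls, and its part in these values was not tested. Across the 14468 members the rank correlation of the 72 h fold with the gap was weak (Spearman's rho 0.108), and all points share the same library. The strongest peaks of neighbouring regions were not of like height either. Spearman's rho between the 72 h fold of a member and that of the region holding its nearest proliferation peak was 0.0923 over 12820 members.

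The summits of a member at 36 h and 72 h lay a median of 77 bp apart, and 80.8% (80.1 to 81.4%) of members had them within 200 bp. The corresponding values were 73 bp and 82.9% for distant gained regions and 63 bp and 78.4% for regions of all 3 stages. Merging joins overlapping peaks, which by itself keeps the summits of a short region close, so this is a description. For the 9999 members with an older neighbour on 1 side, the summit fell on the side of the peak's midpoint that faced this neighbour in 52.9% (52.0 to 53.9%) at 36 h and 52.5% (51.5 to 53.5%) at 72 h. The summits thus leaned toward the older peak by a small margin.

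Levels at 36 h and 72 h went together across members, with Spearman's rho of 0.571 between the depth-scaled summit fragments. It was 0.567 across distant gained regions, so this was not particular to members. Counting fragments alone adds scatter at these numbers. More fragments per unit of depth were found at 72 h than at 36 h in 9155 members (63.3%, 62.5 to 64.1%). The median ratio of 72 h to 36 h was 1.12. Regions of all 3 stages also stood higher at 72 h in this measure, however. Their median ratio was 1.15 (a shift of 0.20 on the log2 scale). With 1 library per stage, an offset of the whole library and a rise at these regions cannot be told apart. Relative to that shift the median ratio of members was 0.977, and 47.7% of members (46.8 to 48.5%) lay above it, so the direction turned. The corresponding median of distant gained regions was 1.05, with 55.1% above the shift. Of all 54072 regions with a peak at both stages, 21.7% were at least 1.5-fold higher at 72 h by depth alone and 5.51% at least 1.5-fold higher at 36 h. Among members these shares were 20.5% (19.8 to 21.2%) and 7.26% (6.85 to 7.69%), and among distant gained regions 28.0% (27.1 to 28.8%) and 7.24%. Relative to the shift, 11.5% of members were at least 1.5-fold higher at 72 h and 14.2% at 36 h, compared with 17.1% and 12.9% of distant gained regions.

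**Figure D2:**
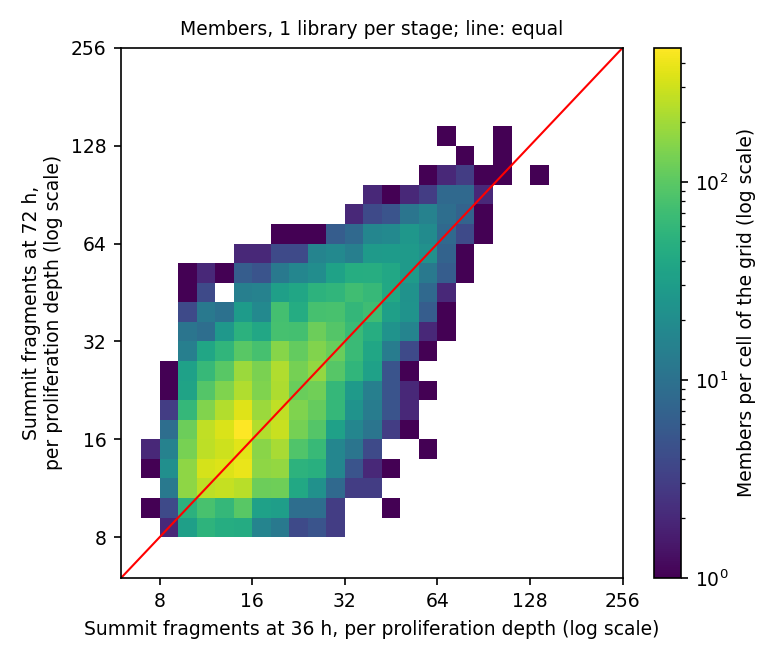
Depth-scaled summit fragments of the 14468 members at 36 h (horizontal, log scale) and at 72 h (vertical, log scale), with the number of members per cell of the grid as colour and equal values as a line. Most members sat between 10 and 47 fragments at both stages, and 63.3% lay above the line.

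How far the members' missing call in proliferation reaches depends on the bar for a call there. At the background recovered at the nearest proliferation peak, a median of 11 fragments reached the lowest −log10 p of that list. This bar, which takes no account of the length of a peak, was 9 in the lowest 5% of members and 18 in the highest 5%. Without a change in level, 11358 members (78.5%) would have been expected to reach their own bar from the fragments at both later stages, compared with 79.8% of all gained regions. A summit is the highest point of a peak, which favours the stages that made the call. The counting error at 36 h and 72 h was then taken into account, but not that of a count in proliferation. In 4709 members (32.5%, 31.8 to 33.3%), the lower 95% Poisson bounds of both stages were at or over the bar. For all gained regions the share was 34.8%. The members' share was 24.1% (21.1 to 27.4%) at gaps under 147 bp and 37.1% (34.3 to 39.9%) at 10 to 12.5 kb. At a bar of 18 fragments, set by the 95% quantile of the background at proliferation peaks, 1791 members (12.4%) met it at both stages. The lists hold no proliferation level for any member, so these counts rest on the later stages and on the background at another peak, and the absence of a call is not a measured absence of the mark. The local background at the nearest proliferation peaks had a median of 1.74 times that library's genome-wide level. At the members themselves the median, on the scaled pileup that enters the fold (fragments times 0.698 at 36 h and 0.657 at 72 h), was 1.32 at 36 h and 1.25 at 72 h, where the genome-wide level was 1.25 and 1.08. Regions of all 3 stages had medians of 1.32 and 1.34 on the same scale. The value of 1.74 comes from the proliferation library and the others from the later 2 libraries. The part of the difference in background in the missing calls was not tested.

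The older peaks beside members were called again during differentiation in a larger share than other proliferation peaks. Of the 57101 proliferation peaks, 24098 (42.2%) had a member within 12.5 kb. Of these, 82.9% (82.4 to 83.3%) were overlapped by a peak at 36 h and by one at 72 h. Of the 33003 proliferation peaks without a member in reach, 63.3% (62.8 to 63.8%) were. The peaks of both groups had nearly the same height in proliferation, with median folds of 5.49 and 5.52, and the same median width of 363 bp. For 88.6% of members the nearest proliferation peak belonged to a region held at all 3 stages, and for 4.56% it was in a region called in proliferation only. Members and retained peaks are called from the same 36 h and 72 h libraries, so the shares are not independent of each other.

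The difference was present at every height of the older peak. Proliferation peaks were divided by fold into 4 classes of equal size. In the lowest class (1.78 to 4.43), 70.8% (69.6 to 71.9%) were kept at both later stages with a member in reach and 43.2% (42.2 to 44.3%) without. In the second class the shares were 74.7% and 48.5%, and in the third 88.6% and 68.6%. In the highest class (7.76 to 35.9) they were 98.3% (97.9 to 98.6%) and 92.5% (91.9 to 93.1%). It was also present at every density of older peaks. Proliferation peaks with no other within 12.5 kb were kept in 83.1% with a member in reach and 62.4% without. With 1 or 2 others the shares were 83.2% and 67.4%, and with 3 or more 82.7% and 60.7%. Both divisions rest on the proliferation list alone. A member in reach means calls at 36 h and 72 h nearby, so the divisions do not remove the dependence stated above.

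**Figure D3:**
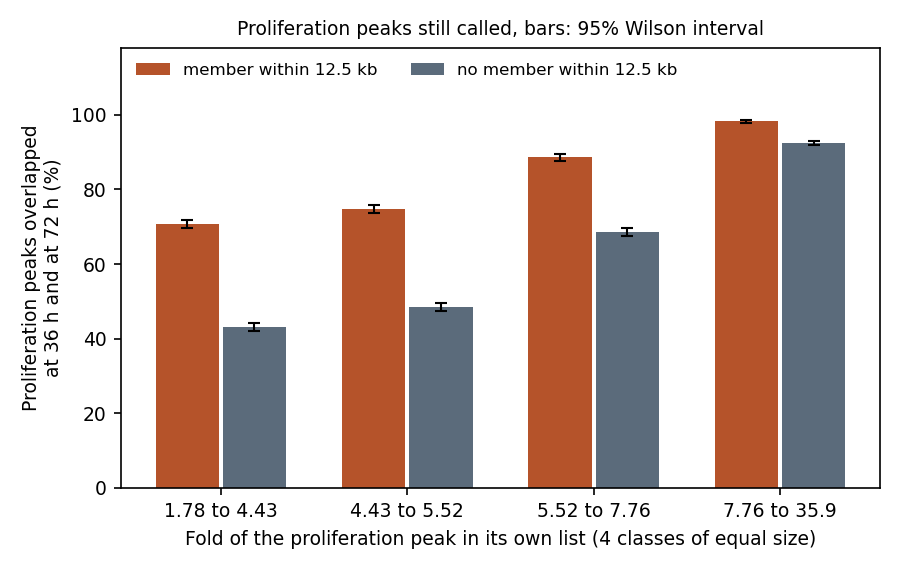
Percentage of proliferation peaks overlapped at both 36 h and 72 h, by 4 classes of their fold in the proliferation list, for peaks with a member within 12.5 kb (brown) and without (grey). Bars start at 0 and whiskers are 95% Wilson intervals. The brown bar was higher in each class, by the widest margin in the lowest (70.8% and 43.2%) and the narrowest in the highest (98.3% and 92.5%).

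By depth alone, the median signal of the regions of all 3 stages beside a member was higher at the later stages than in proliferation. At the later stages it was also higher than that of the regions without a member. Among the 28908 regions of all 3 stages, 13247 held a proliferation peak with a member in reach. Their median summit fragments were 27 in proliferation, 32.6 at 36 h and 38.3 at 72 h on the depth of proliferation. In the 15661 regions without a member the medians were 31, 26.8 and 31.9. The median ratio to proliferation was 1.11 at 36 h and 1.28 at 72 h beside a member, and 0.923 and 1.04 elsewhere. Over all regions of 3 stages it was 1.004 at 36 h and 1.139 at 72 h. The 72 h library thus stood higher at these regions as a whole, and the ratios given here were not set relative to that shift. At 72 h the ratio beside a member lay above the value for all regions, and the ratio elsewhere lay below it. Of all regions held at 3 stages, 16.0% were at least 1.5-fold higher at 36 h than in proliferation and 25.7% at 72 h. Beside a member these shares were 23.4% and 35.5%, and without one 9.76% and 17.5%. At least 1.5-fold lower were 19.1% of all at 36 h and 10.8% at 72 h, with 11.7% and 5.63% beside a member and 25.4% and 15.1% without one. In the highest of 4 classes by proliferation fold, more regions beside a member were lower than higher at 36 h (425 and 237). The split by members uses calls of the same 36 h and 72 h libraries, so the signal here and the lengths below are not independent of it.

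The neighbours were also longer at the later stages. Their median length under peaks went from 644 bp in proliferation to 1046 bp (36 h) and 1109 bp (72 h), compared with 675, 768 and 831 bp in regions without a member. At least a 1.5-fold greater length was found in 35.0% of all regions held at 3 stages at 36 h and in 37.4% at 72 h. The shares were 45.2% and 47.4% beside a member and 26.3% and 29.0% elsewhere. A length at least 1.5-fold lower was found in 10.9% of all at 36 h and 7.27% at 72 h, with 5.92% and 3.99% beside a member and 15.2% and 10.1% elsewhere. The ratio was largest at the weakest older sites. In the lowest of 4 classes by proliferation fold, the median ratio of length at 72 h to proliferation was 2.10 beside a member and 1.53 elsewhere, and in the highest class it was 1.20 and 1.07. The same order held for the signal, with median ratios at 72 h of 1.46 and 1.16 in the lowest class and 1.15 and 1.0 in the highest. Regions of low fold in 1 library tend to stand higher in another by counting error alone, which touches both groups of a class.

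**Figure D4:**
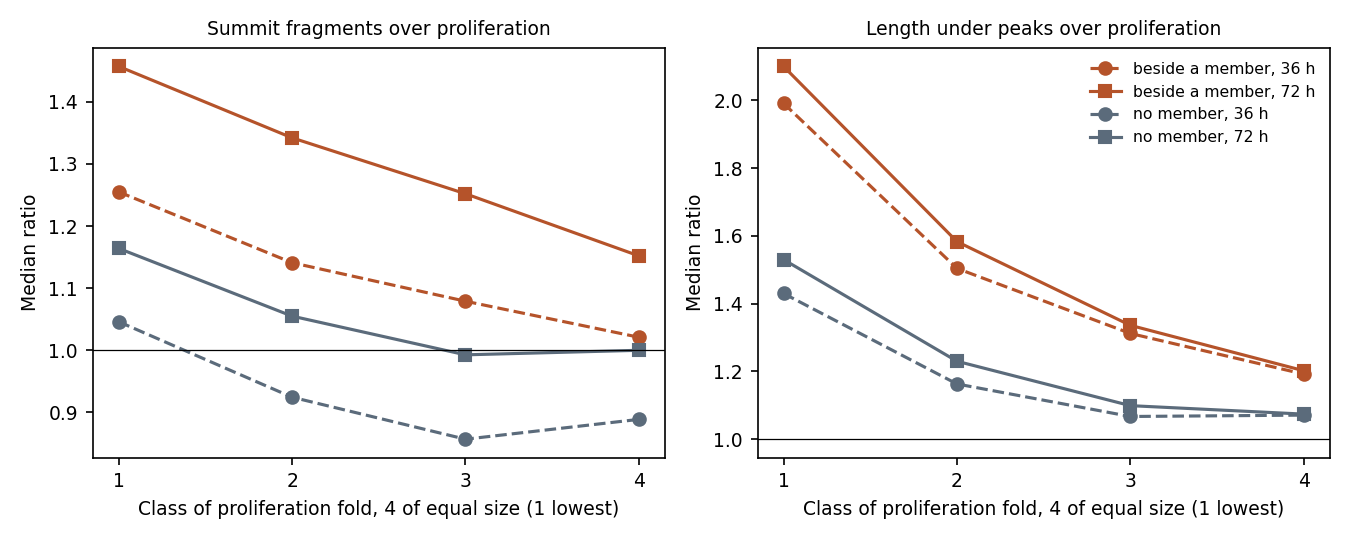
Median ratio of depth-scaled summit fragments (left) and of length under peaks (right) at 36 h (dashed) and 72 h (solid) to proliferation, in regions of all 3 stages by 4 classes of proliferation fold, beside a member (brown) and elsewhere (grey). The brown lines lay above the grey ones of the same stage in each class, for example 2.10 and 1.53 for the length at 72 h in the lowest.

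At the later stages the old neighbour was usually the taller of the pair where its region was held at all 3 stages. Pairs whose neighbour lacked a later call were left out. Over the 12820 pairs kept, the median fold of the neighbour's region was 11.9 at 36 h and 12.1 at 72 h. A region beside several members enters these medians several times, as all members shared 8960 nearest proliferation peaks. Over all regions of 3 stages, each counted 1 time, the median fold was 9.42 and 9.94. That class as a whole was thus taller than the members, but its medians are not directly comparable with those over pairs. Each counted 1 time, regions beside a member had medians of 32.6 (36 h) and 38.3 (72 h) depth-scaled summit fragments. All regions of 3 stages had 29.3 and 34.6. The member had the higher fold in 16.8% of 12820 pairs at 36 h and 17.2% at 72 h, and at both stages in 1057 pairs (8.25%). Set against the older peak as it was in proliferation, the member's depth-scaled summit at 72 h held a median of 0.911 times as many fragments, and 42.8% of members held more.

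The older neighbours of the 5 tallest members at 72 h ranged from low to high in the proliferation list. The tallest member lay on chromosome 15 from 76845582 to 76854483 and was 8902 bp wide. It had 96 summit fragments at 36 h (exact 95% Poisson interval 77.8 to 117) and 123 at 72 h (102 to 147), with folds of 25.8 and 34.5. Its older neighbour, 334 bp away, was 14 fragments high in proliferation, with a fold of 4.79 above 34.0% of that list. That neighbour's region reached a fold of 31.0 at 36 h and 35.5 at 72 h, so both sides of the gap were high at the later stages.

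The second tallest member was short. It measured 808 bp on chromosome 18 from 67534027 to 67534834 and had 87 (36 h) and 107 (72 h) summit fragments. The older peak 3.68 kb away had 44 fragments in proliferation and a fold of 10.2, above 87.1% of that list, and its region moved from a fold of 10.2 at 36 h to 32.0 at 72 h. The next were on chromosome 1 from 20643048 to 20647864, chromosome 2 from 155430057 to 155434590 and chromosome 11 from 11792216 to 11795957, with 72 h folds of 33.3, 33.3 and 32.6. Their older neighbours were 11.7, 11.2 and 6.75 kb away and had 14, 20 and 19 fragments in proliferation, with folds above 15.4%, 32.0% and 57.3% of the list. On chromosome 1 and chromosome 2 the neighbouring regions had 72 h folds of 22.7 and 31.9, whereas the one on chromosome 11 had 8.11. At 36 h the folds on chromosome 1 and chromosome 2 were 16.3 and 11.8, at 92 and 83 summit fragments. The local background recovered there was 3 and 4 on the scaled pileup that enters the fold (fragments times 0.698 at 36 h), compared with a genome-wide level of 1.25, and a higher background lowers the fold.

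The tallest members at 36 h were a different set of 5 regions. The highest fold was 32.5, on chromosome 15 from 75657266 to 75660320, with 132 (36 h) and 110 (72 h) summit fragments. Its 72 h fold was 14.6, at a recovered background of 4 on the scaled pileup, while its ratio of depth-scaled fragments was 0.907 (exact 95% interval 0.698 to 1.18). Counting error alone therefore spans equal levels. A region on chromosome 3 from 144301487 to 144302608, 1122 bp wide, had 97 and 81 fragments and lay 421 bp from an older peak of 21. The others were on chromosome 1 from 137732934 to 137735450 (93 and 101 fragments), chromosome 15 from 10856210 to 10859784 (99 and 87) and chromosome 12 from 81976695 to 81980374 (87 and 98). None of the 5 ratios excluded 1 within its counting interval.

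The members with the most extreme ratios between the later stages are named next. Their intervals cover the counting error of a single region. They make no allowance for the choice of extremes or for the median ratio of 1.15 at regions of all 3 stages. Of the 4421 members with at least 30 summit fragments at the stronger stage, the highest ratio of 72 h to 36 h was 5.53 (2.95 to 11.3), on chromosome 11 from 119469065 to 119470567. Its fragments numbered 12 and 61, and its length under peaks was 184 and 1503 bp. On chromosome 4 from 140329692 to 140330936 there were 13 and 56 fragments, a ratio of 4.69 (2.53 to 9.35). On chromosome 6 from 91495245 to 91496294 there were 11 and 46, a ratio of 4.55 (2.32 to 9.75). All 3 were near the bottom of the members at 36 h, where the lowest 5% had 12 fragments or fewer.

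The opposite course was seen at a region on chromosome 7 from 90236151 to 90237580, with 57 and 11 fragments (ratio 0.210, 0.0994 to 0.405). Its length under peaks was 1430 bp at 36 h and 187 bp at 72 h. A region on chromosome 15 from 34720359 to 34720984 had 67 and 16 fragments (ratio 0.260, 0.141 to 0.454). The third, on chromosome 19 from 47375687 to 47378199, had 47 and 12 (ratio 0.278, 0.134 to 0.532). These 3 were higher at the earlier stage of differentiation, and their older neighbours were still called at both stages. The 6 regions were chosen for their ratios, so the ratios are a description.

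The widest members were covered by peaks over most of their length. The widest, 11922 bp on chromosome 7 from 28379530 to 28391451, had 4 peaks over 11660 bp at 36 h and 5 over 11348 bp at 72 h. The older peak lay 1.34 kb away, was called over 28392794 to 28392940, and had 11 fragments. The next, 9755 bp on chromosome 8 from 126409622 to 126419376, had 7 peaks over 8235 bp and 3 over 9548 bp and lay 880 bp from an older peak of 22 fragments. Its summit had 56 and 91 fragments (ratio 1.77, 1.26 to 2.51). The third was the chromosome 15 region of 8902 bp given above.

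The tallest older neighbour belonged to 3 members at once. It was a proliferation peak on chromosome 17 from 46993190 to 46995833, with 138 fragments and a fold of 34.0. The members lay in a row on 1 side of it, at gaps of 199 bp, 1.56 kb and 2.20 kb (46996033 to 46996350, 46997390 to 46997940 and 46998033 to 46998534). They were low, with 21, 24 and 24 summit fragments at 36 h and 16, 29 and 14 at 72 h. The neighbour's own region had folds of 45.0 at 36 h and 24.4 at 72 h.

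Members were grouped into neighbourhoods, in which the members themselves act as links. When proliferation peaks and members were stitched across gaps of up to 12.5 kb, 16621 neighbourhoods formed, and 6080 (36.6%) held a member. Of these, 2998 held exactly 1 and 718 held 5 or more, and the latter together contained 5267 members (36.4%). Member peaks made up 15.4% of all length under peaks at 36 h (8647 kb) and 14.7% at 72 h (9387 kb). In the neighbourhoods that held a member, the total length under peaks went from 16468 kb in proliferation to 31202 kb (36 h) and 33198 kb (72 h). The member peaks equalled 58.7% of the increase at 36 h and 56.1% of that at 72 h. The rest of the increase, which is net of peaks lost or shortened, was not divided further. A neighbourhood is defined to contain its members, and this alone makes its length grow. In the neighbourhoods without a member, the length under peaks went from 14861 kb in proliferation to 11819 kb (36 h) and 13321 kb (72 h). These were stitched from proliferation peaks alone, with a median span of 1276 bp, compared with 11564 bp where a member was held. That construction by itself favours the proliferation length, so the fall is not a measured loss of the mark.

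The 3 neighbourhoods with most members differed in how much was there beforehand. On chromosome 6 from 127909722 to 128075221, 31 members lay among 26 proliferation peaks over 166 kb. The length under peaks went from 10 kb in proliferation to 43.3 kb (36 h) and 44.0 kb (72 h), of which members gave 17.2 and 19.5 kb. Their folds at 72 h ran from 3.95 to 19.5 with a median of 6.47. On chromosome 1 from 137515116 to 137710507, a stretch of 195 kb, 30 members were spread among and beyond 70 proliferation peaks that already covered 48.9 kb. The length reached 85.6 kb at 36 h and 94.7 kb at 72 h, with 13.7 and 16.1 kb in members.

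The neighbourhood on chromosome 4 from 106620827 to 106693001 was the shortest of the 3. Its 25 members lay among 10 proliferation peaks in 72.2 kb. The length under peaks went from 4.50 kb in proliferation to 32.3 kb (36 h) and 36.9 kb (72 h), with 23.0 and 25.9 kb in members. The members' folds ran from 3.22 to 27.4 at 36 h and from 3.63 to 19.8 at 72 h. Across the 3 neighbourhoods, in the order given, the members higher at 72 h by depth alone numbered 20 of 31, 17 of 30 and 15 of 25, where the share of all members was 63.3%. Those with lower 95% bounds at or over the proliferation bar at both stages numbered 11, 6 and 8, where the share of all members was 32.5%.

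**Figure D5:**
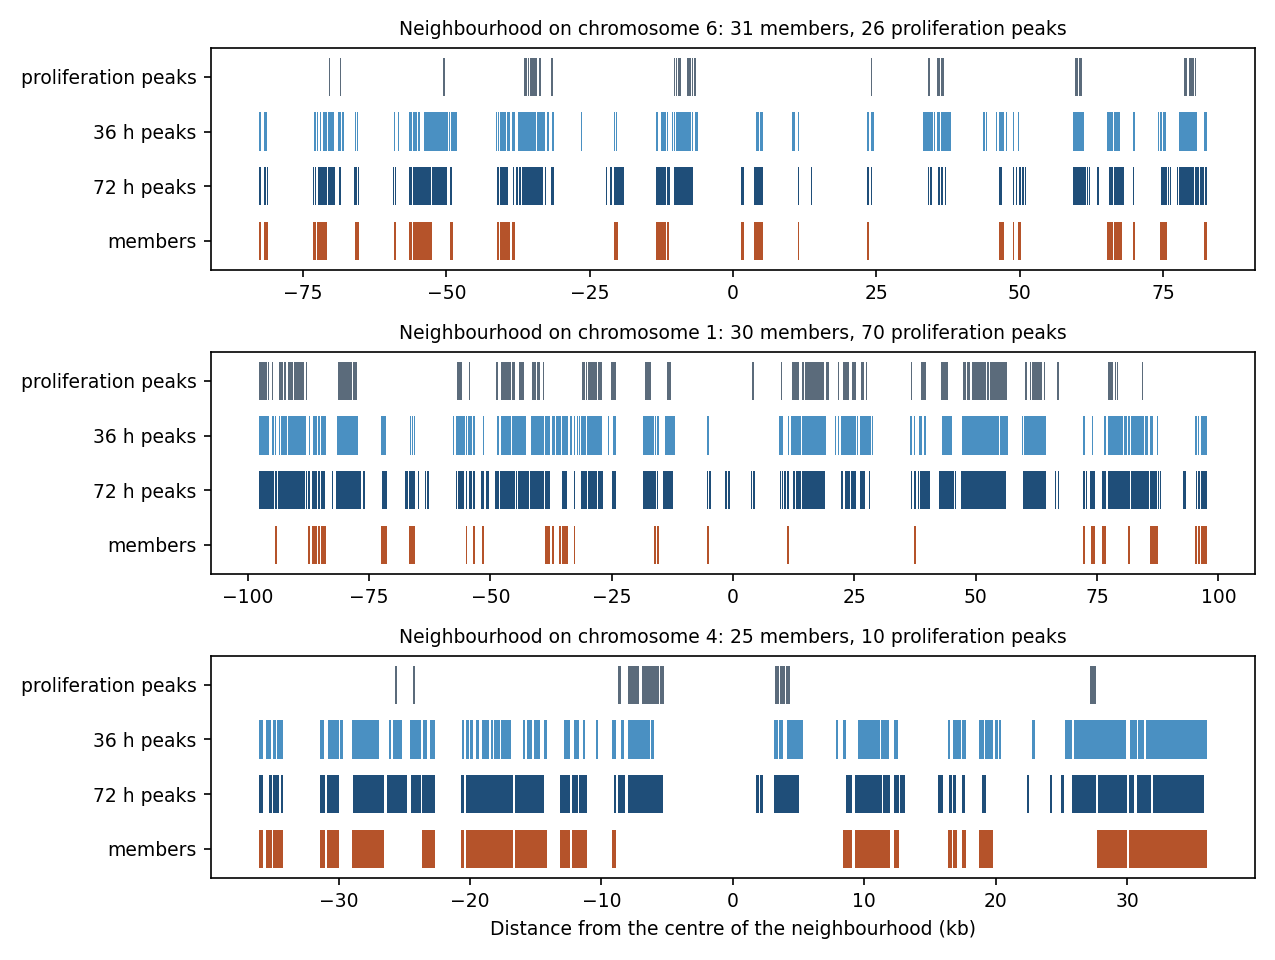
Peaks of each stage and members, as bars drawn to scale, by distance in kb from the centre of the 3 neighbourhoods that held most members. On chromosome 1 the 30 members were spread among and beyond 70 proliferation peaks, while on chromosome 4 the 25 members covered more length than the 10 proliferation peaks.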

How the data were processed

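H3K27ac ChIP-seq (sequencing of DNA recovered by chromatin immunoprecipitation) was analysed from 3 peak lists, 1 per stage. Inputs had no file among those used here. The submitters' processing notes name BWA, MACS2, deepTools and build mm9, without version or setting. In each deposited list the authors give a fold (the ratio of ChIP to local background at the summit), a −log10 p and −log10 q, a score (not analysed) and a summit offset.

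With fold read as the pileup plus 1 over the background plus 1, and p as a Poisson tail above the pileup, a pileup of whole fragments times 1 scale per library (0.673, 0.698 and 0.657) gave back the deposited −log10 p of 100% of peaks within a relative tolerance of 0.0003. This was tested on simulated data. The genome background was the lowest background shared by at least 1% of peaks. Depth is its ratio to the scale, which assumes equal genome size and fragment length settings. Values of a region are those of its peak with the highest fold. A level was called higher at 1.5-fold.

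Members and lists were chosen with earlier results of these data known. Named regions are the 5 with the highest fold at 72 h and at 36 h, the 3 with the highest and the lowest 72 h to 36 h ratio (at least 30 fragments), the 3 widest, the 3 with the tallest neighbour, the 3 fullest neighbourhoods, and those at the 12.5 kb limit. Gene lists and motifs were not used, for want of a genome of this build. Python 3.11.15, numpy 2.4.6, pandas 2.3.3, scipy 1.17.1 and matplotlib 3.10.9 were used.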

Additional observations from a re-analysis of the deposited data

How the results depend on the processing

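Each stage had 1 library. No paired analysis was possible because each stage had 1 library, and none could be left out. The number of members (14468) was 9870 with a window of 5 kb, 18361 with 25 kb and 14617 when an overlap had to reach 50% of the shorter peak. It fell to 5173 when peaks were merged across gaps of up to 1 kb, to 8727 with a −log10 q of at least 5, and to 6945 with lists equal in number. With that q limit at 36 h and 72 h only, a setting chosen after seeing the data, it was 7516. In the same order of settings, the ratio of median 72 h folds of members to distant gained regions was 0.865, 0.878, 0.888, 0.938, 0.947, 0.925 and 0.922. The percentage of proliferation peaks with a member in reach that were kept at both later stages was 86.0, 80.1, 82.5, 82.6, 84.4, 76.7 and 77.4, compared with 66.3, 60.5, 63.3, 68.5, 67.4, 54.8 and 55.8 for those without. Members with an older peak on both sides made up 18.2%, 43.6%, 32.9%, 20.7%, 24.4%, 28.2% and 28.5%. Members higher at 72 h than at 36 h made up 69.2% with the q limit in all lists or in the later 2, and 68.5% with lists equal in number. Scaled by the signal at regions of all 3 stages, also chosen after seeing the data, they made up 47.7%. Motif shares were not run. Low fragment numbers (a median near 20) limit single ratios.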
